A study of Mus musculus with 8 samples.

Results

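Expression of 10 genes that mark contractile smooth muscle cells and pericytes was followed across 8 mouse melanomas. The genes are Acta2, Actg2, Tagln, Cnn1, Myh11, Lmod1, Des, Rgs5, Cspg4 and Notch3. They were chosen by name, with earlier results of these data known. Every probe annotated to them was used, which gave 13 probes for 10 genes among 25697 probes and 16593 named genes on the array. Acta2 had 4 probes and each of the other genes had 1. A probe was called detected where its detection p was under 0.05. By that rule 9 of the 10 genes were detected on at least 1 array, and 5 of the 10 (Acta2, Des, Rgs5, Cspg4 and Notch3) on all 8 arrays.

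The tumours arose in FVB/n mice of genotype DCT-TVA;Ink4a/Arf lox/lox. The Dct promoter, active in melanocytes, drives the avian virus receptor TVA in these mice, so that subcutaneous injection of newborns with virus-producing cells infects melanocytes. In the 7 resistant tumours the viruses carried a Tet-off activator and TRE-NRASQ61R-IRES-Cre, which gives a doxycycline-repressible mutant NRAS together with Cre recombinase, the enzyme that removes the floxed Ink4a/Arf tumour suppressor locus. Doxycycline food was given from a volume of 1000 mm3, and the resistant tumours are ones that did not stay regressed with NRASQ61R off. The single control tumour kept NRASQ61R on. Its description names NRAS-IRES-Cre without the Tet-off and TRE elements, so a difference of construct and the state of NRAS cannot be told apart. The animals' ages when tumours were collected are not stated. The labels also leave unsaid whether the 7 resistant tumours came from 7 mice. The p-values reflect the spread among the tumours sampled, which may be partly technical.

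Smooth muscle cells and pericytes together form the mural coat of blood vessels, and smooth muscle also lines hollow organs. Their contractile program includes actin isoforms, smooth muscle myosin and thin-filament proteins such as transgelin and calponin, and is switched on by serum response factor (SRF) with myocardin-family cofactors acting at CArG boxes. Alpha smooth muscle actin, the product of Acta2, is also made by activated fibroblasts and myofibroblasts in tumours, and NG2, the product of Cspg4, is also known as a melanoma surface antigen.

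Promoter sequence was examined for 2 pairs of genes: Acta2 and Cspg4, which were both highest in resistant tumours 2, 7 and 4, and Rgs5 and Notch3, which were both below the control in all 7 resistant tumours. The 250 bases before the annotated start are given from RefSeq, build GRCm38.p6, 5′ to 3′ on the gene's own strand, for Acta2 (minus strand, chr19:34255374-34255623), Cspg4 (plus strand, chr9:56864854-56865103), Rgs5 (plus strand, chr1:169655251-169655500) and Notch3 (minus strand, chr17:32166891-32167140). Capitals mark matches to a CArG-like element or to CATTCC, the core of the MCAT element bound by TEAD factors, on either strand.
Acta2: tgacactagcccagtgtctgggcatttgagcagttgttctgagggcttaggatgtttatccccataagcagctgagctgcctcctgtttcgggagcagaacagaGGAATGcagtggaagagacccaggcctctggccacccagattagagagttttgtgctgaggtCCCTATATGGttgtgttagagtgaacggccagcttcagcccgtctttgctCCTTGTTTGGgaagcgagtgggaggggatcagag
Cspg4: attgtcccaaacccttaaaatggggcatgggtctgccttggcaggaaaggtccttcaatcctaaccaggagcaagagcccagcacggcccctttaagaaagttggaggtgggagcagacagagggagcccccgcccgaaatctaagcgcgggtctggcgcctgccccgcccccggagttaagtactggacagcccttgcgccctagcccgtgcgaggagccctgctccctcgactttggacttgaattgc
Rgs5: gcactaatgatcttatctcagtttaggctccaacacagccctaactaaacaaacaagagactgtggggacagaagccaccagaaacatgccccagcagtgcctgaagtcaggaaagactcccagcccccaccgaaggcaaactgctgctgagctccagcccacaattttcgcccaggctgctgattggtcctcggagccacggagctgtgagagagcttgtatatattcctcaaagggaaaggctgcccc
Notch3: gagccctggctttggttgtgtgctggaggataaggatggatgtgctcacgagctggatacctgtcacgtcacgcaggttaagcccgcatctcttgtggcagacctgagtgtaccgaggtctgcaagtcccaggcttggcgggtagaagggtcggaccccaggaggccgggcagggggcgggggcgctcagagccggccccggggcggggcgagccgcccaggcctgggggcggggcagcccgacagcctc
The table held promoters for 7 of the 10 genes (Acta2, Cnn1, Lmod1, Des, Rgs5, Cspg4 and Notch3). No entry was matched for Actg2, Tagln and Myh11. A CArG-like element was counted where at least 5 of the 6 bases between CC and GG were A or T, and it occurred in 8.59% of all 32851 promoters of the same length. Acta2 was the 1 gene of the 7 that held it, at CCCTATATGG, which starts 84 bases before the start site, and at CCTTGTTTGG, which starts 34 bases before it. The strict CArG box, with 6 of 6 such bases, occurred in 1.47% of all promoters and in 0 of the 7. CATTCC or its reverse complement occurred in 12.6% of all promoters, in Acta2 from 146 bases before the start as GGAATG, and in Lmod1 from 130 bases before it. The matches in Acta2 did not overlap each other. GTGGGAA, the sequence bound by the NOTCH effector RBPJ, occurred on either strand in 5.42% of all promoters and in 0 of the 7. A match is a description of letters and not of a bound site. The Cspg4, Rgs5 and Notch3 windows hold none of these motifs.

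Between 11821 and 12851 probes were detected per array, with 12225 in the control. Precision is limited by having only 8 arrays. Levels below are log2 intensities after background correction and quantile normalization. The lowest level among detected probes was 5.12 to 5.36 depending on the array. Levels of different probes are not comparable with each other. The tissue is a whole tumour, so fewer cells of a type and less RNA per cell cannot be told apart. The melanocyte genes Mitf, Tyr, Tyrp1, Dct, Mlana and Pax3 were not detected on any array, and Pmel was detected only in resistant tumours 4 and 6. The probe for mouse Nras read 11.87 in the control and 11.66 to 12.23 in the resistant tumours, and does not check the introduced NRASQ61R.

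The resistant tumours as a group did not pass the test against the control for any of the genes. Of the 9 genes tested, 0 were called higher, where 0.00956% of all 10461 genes were, and 0 were called lower, where 0.21% were (limma, adjusted p under 0.05). At an unadjusted p under 0.05, limma called 0 of the 9 genes, against 299 higher and 560 lower among all genes, and the lowest unadjusted p of the 9 was 0.137, for Rgs5. The median log2 difference, resistant minus control, was -0.01 over the 9 genes and -0.02 over all genes. The spread among the resistant tumours differed from gene to gene. The resistant SD of Des, Acta2, Cspg4 and Actg2 was larger than that of 98.4%, 97.5%, 93.2% and 91.4% of all genes tested, in that order. That of Actg2 includes its lowest values, 5.10 and 4.97 in tumours 3 and 6, which did not detect it. Rgs5 and Notch3 were at 77.9% and 71.5%, and Myh11, Lmod1 and Tagln, which were each detected on 1 array, at 47.4%, 24.1% and 14.9%. With 1 control, the spread among resistant tumours supplies all 6 residual degrees of freedom of the test.

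**Figure D1:**
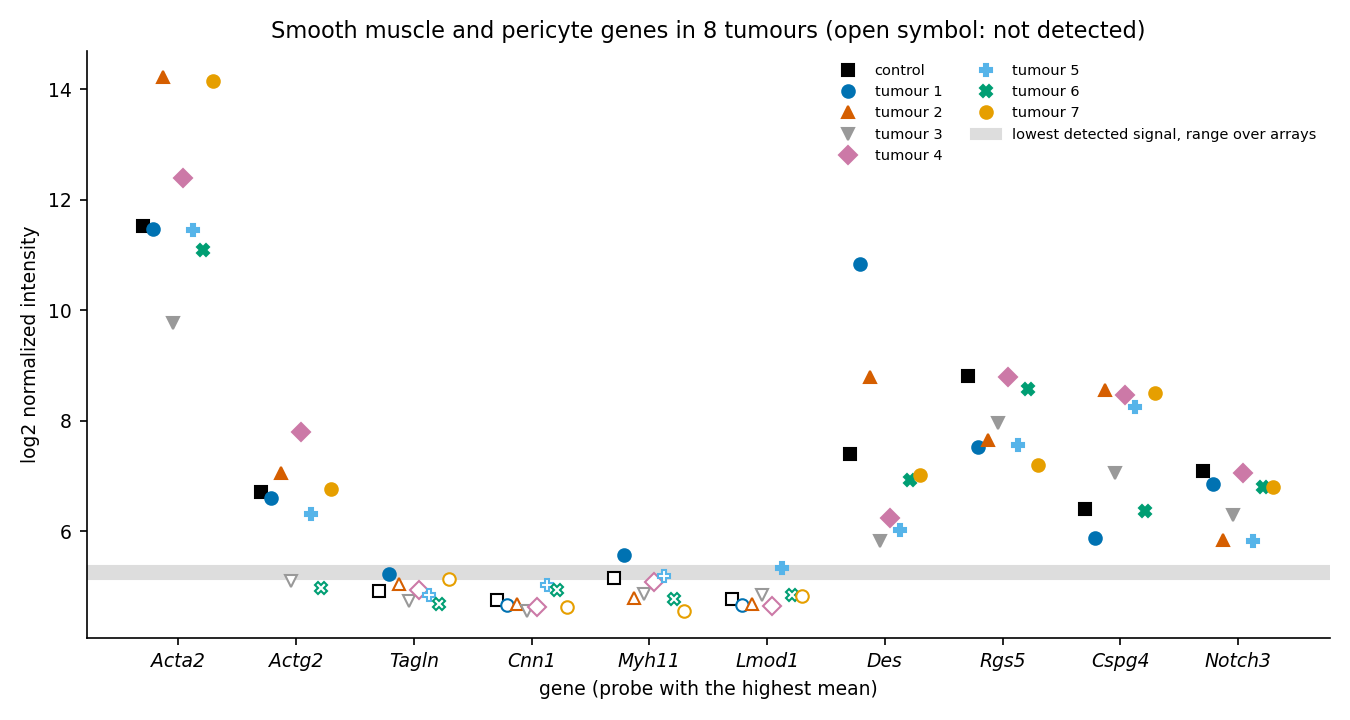
Log2 normalized intensity of the 10 genes in each of the 8 tumours, 1 symbol per tumour, with open symbols where the probe was not detected and a grey band for the lowest detected signal over the arrays (5.12 to 5.36). Acta2, Des and Cspg4 spread widely among the resistant tumours, while Tagln, Cnn1, Myh11 and Lmod1 lie at or near the band.

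Acta2, which encodes the alpha smooth muscle actin of contractile filaments, was at 11.51 in the control. Resistant tumours 1 to 7, in that order, read 11.47, 14.21, 9.77, 12.39, 11.45, 11.10 and 14.14. Tumours 2 and 7 stood highest and tumour 3 lowest, and the control lay in the middle of the resistant range. On the linear scale, tumour 2 was 6.48-fold and tumour 7 was 6.19-fold above the control, tumour 4 was 1.83-fold above it, and tumour 3 was 3.35-fold below it. The levels of the control and tumours 1 and 5 lay within 0.07 of each other. The resistant SD was 1.63 (n = 7) on the log2 scale, larger than that of 97.5% of all genes tested, whose median SD was 0.350, and the highest resistant tumour was 21.7-fold above the lowest. The group difference, resistant minus control, was 0.56 (SE 1.49, 95% interval -2.85 to 3.97, limma adjusted p = 0.953), well inside that spread. The deposited intensity before any normalization ran from 818.4 to 19214.3 over the resistant tumours and was 3658.9 in the control.

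All 4 Acta2 probes were detected on every array, and all 4 placed tumour 3 lowest among the resistant tumours and tumours 2 and 7 as the highest pair. They differed in where the control stood. For the brightest probe, ILMN_2693895, whose values are given above, and for ILMN_2923445, at 8.99 in the control and 6.99 to 11.74 in the resistant tumours, 3 of 7 resistant tumours were above the control. For ILMN_2710354, the control was at 6.19 and the resistant tumours at 5.77 to 10.63, and 6 of 7 were above the control. For ILMN_2710353, the control was at 5.70 and the resistant tumours at 5.67 to 10.22, again with 6 of 7 above it. The group difference was 0.37 for ILMN_2923445, 1.70 for ILMN_2710354 and 1.80 for ILMN_2710353, with adjusted p-values of 0.960, 0.769 and 0.755 in a limma fit over all detected probes. Tumours 2 and 7 differed by 0.07 and -0.21 (tumour 2 minus tumour 7) at the first pair of probes and by 1.75 at each of the second pair. With the mean of the 4 probes in place of the brightest one, the Acta2 difference was 1.11 and still did not pass.

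**Figure D2:**
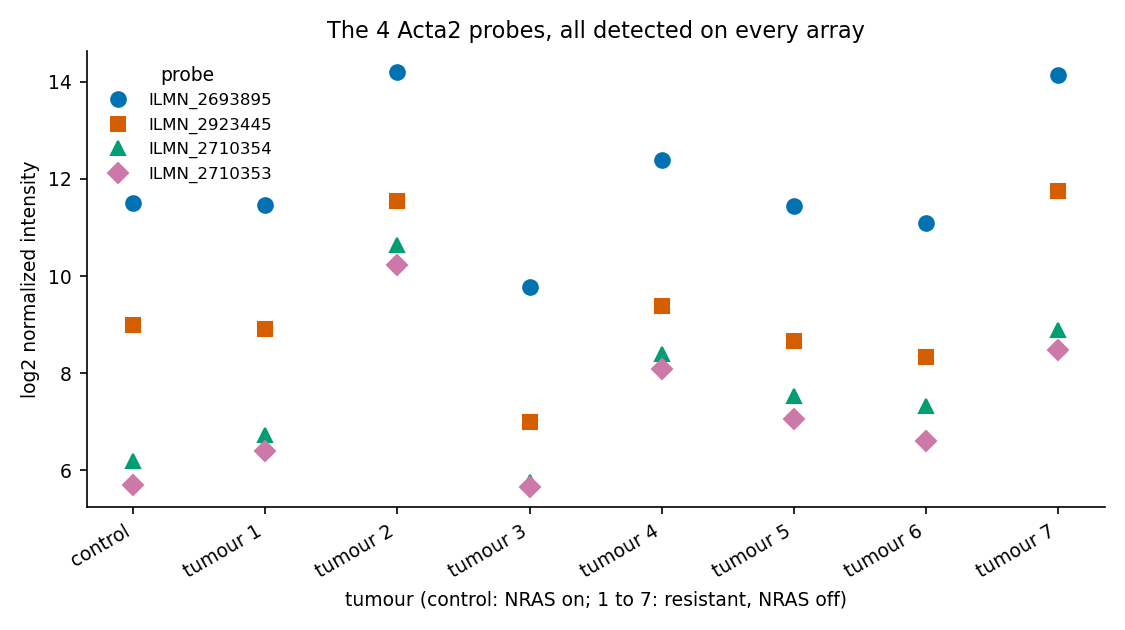
Log2 normalized intensity of the 4 Acta2 probes in the control and the 7 resistant tumours, 1 symbol per probe. All probes were lowest among resistant tumours in tumour 3 and highest in tumours 2 and 7, while the control lay near the middle for one pair of probes and at 6.19 and 5.70, near the bottom, for the other.

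Actg2 (probe ILMN_2839313), the gamma smooth muscle actin of enteric and other visceral smooth muscle, was at 6.70 in the control. Among the resistant tumours that detected it, tumours 1, 2, 4, 5 and 7 read, in order, 6.59, 7.06, 7.79, 6.31 and 6.76, while tumours 3 and 6 did not detect it (detection p 0.080 and 0.089). Tumour 4 was highest, 2.13-fold above the control, or 1.66-fold without background correction. The other detected tumours lay on both sides of the control. The group difference of -0.33 (SE 0.94, limma adjusted p = 0.954) rests in part on the undetected values in tumours 3 and 6. Tumours 2, 4 and 7 were the 3 highest for both actins, in a different order: tumour 2 led for Acta2 and tumour 4 for Actg2.

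The other 4 contractile genes were at the limit of detection. Tagln (probe ILMN_1243652), which encodes the actin-binding protein transgelin, was detected only in resistant tumour 1, at 5.23 with a detection p of 0.039. Myh11 (probe ILMN_2622217), the smooth muscle myosin heavy chain, was also detected only in tumour 1, at 5.57 with a detection p of 0.0088. Lmod1 (probe ILMN_2604885), the leiomodin that nucleates actin filaments in smooth muscle, was detected only in tumour 5, at 5.33 with a detection p of 0.045. Cnn1 (probe ILMN_1221148), the calponin of smooth muscle thin filaments, was detected on 0 of 8 arrays, with detection p-values from 0.103 to 0.593. None of these 4 genes was detected in the control or in tumours 2 and 7, where Acta2 was highest. Each has 1 probe, and whether that probe reports its transcript was not tested, so an undetected value says only that no signal above background was read.

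Des (probe ILMN_2836982), the intermediate filament desmin of smooth, skeletal and cardiac muscle and of pericytes, was at 7.39 in the control. Its levels in resistant tumours 1 to 7, in order, were 10.84, 8.79, 5.82, 6.23, 6.01, 6.92 and 7.02. Tumours 1 and 2 lay above the control, by 10.9-fold and 2.64-fold, and the other 5 below it, tumour 3 by 2.97-fold, tumour 5 by 2.59-fold and tumour 4 by 2.24-fold. Without background correction, tumours 1 and 2 were 7.87-fold and 2.14-fold above the control, and tumours 3, 5 and 4 were at 0.539, 0.573 and 0.616 of it. The group difference was -0.01 (SE 1.66, 95% interval -3.81 to 3.78, limma adjusted p = 0.998) and the resistant SD was 1.82 (n = 7), above that of 98.4% of all genes. Its direction depends on single tumours: the difference was -0.59 without resistant tumour 1 and 0.25 without tumour 3.

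Skeletal muscle genes were also high where Des was high. All 15 measured skeletal muscle markers were detected in tumours 1 and 2, against 7 of 15 in the control, 5 in tumour 3, 3 in tumour 4 and 6 in tumour 5. Their mean log2 levels in tumours 1, 2, 6 and 7 were, in order, 11.07, 8.53, 7.03 and 6.96, and 5.03 to 5.33 in the control and tumours 3, 4 and 5. The 4 tumours with the highest marker mean were thus 4 of the 5 with the highest Des, the other being the control. Their summed linear intensity ranged from 535 to 59002 over the resistant tumours and was 724 in the control, and their part in the Des values was not tested. Myh6 was the 1 cardiac marker detected, in tumour 1 alone, and Nppa, Tnni3, Actc1 and Myl7 were not detected on any array. Tumour 1 was also the tumour in which Tagln and Myh11 were read above background.

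Among 1999 genes that were detected on all arrays and varied by an SD of at least 0.5, the 3 whose pattern over the 8 tumours was most like that of Des were Atp2a1, the calcium pump of fast skeletal muscle (Pearson r = 0.944), Kcnk13, a potassium channel (r = 0.939), and Fam78a (r = 0.938). Atp2a1 is on the skeletal muscle list and was at 13.01 in tumour 1 and 6.02 in the control. The 3 genes most like Acta2 were Angptl7, a secreted angiopoietin-like protein (r = 0.983), Asns, asparagine synthetase (r = 0.937), and Il13ra1, a subunit of the interleukin-13 receptor (r = 0.934). Angptl7 was at 10.40 in the control, at 13.79 and 14.18 in tumours 2 and 7, and at 8.65 in tumour 3, the same extremes as Acta2. These coefficients were the highest of many and are descriptions over 8 arrays.

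**Figure D3:**
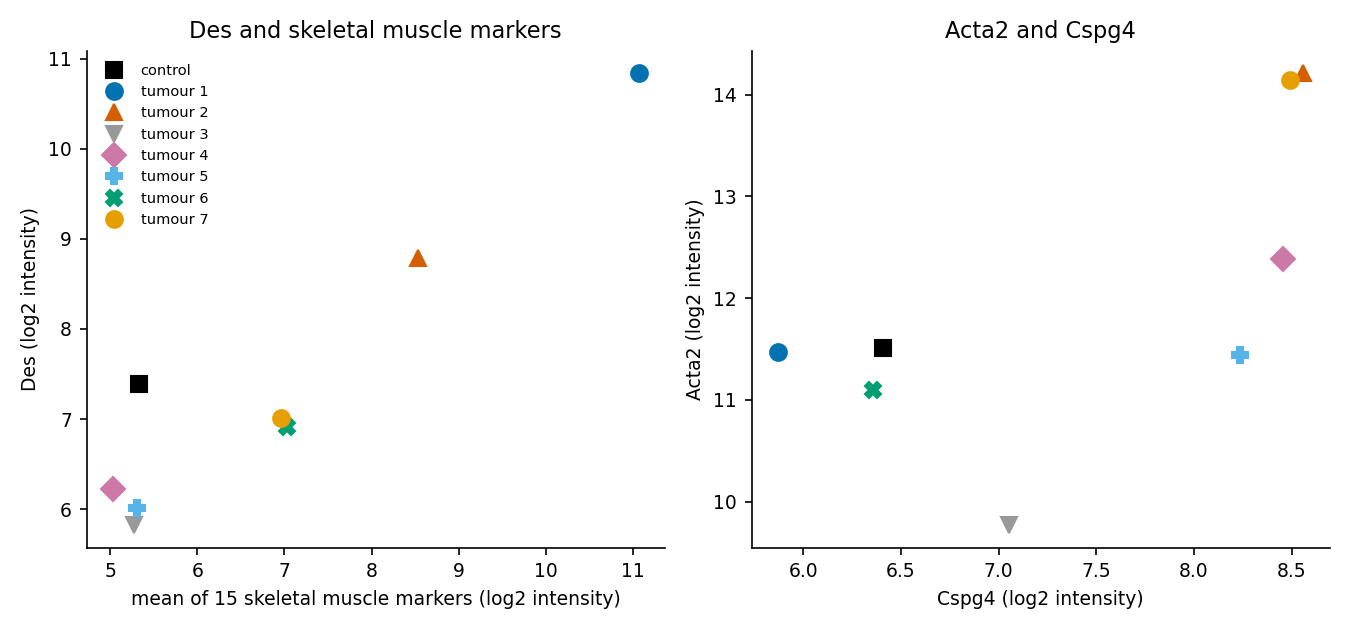
Left, Des against the mean log2 level of 15 skeletal muscle markers; right, Acta2 against Cspg4; each symbol is 1 of the 8 tumours and all axes are log2 intensity. Tumours 1 and 2 lead both axes on the left, and tumours 2, 7 and 4 lead both axes on the right, with tumour 5 high for Cspg4 but at 11.45 for Acta2.

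Cspg4 (probe ILMN_2659224) encodes the NG2 proteoglycan on the surface of pericytes and of many melanoma cells. The control read 6.41, and resistant tumours 1 to 7 read, in order, 5.87, 8.56, 7.05, 8.46, 8.24, 6.36 and 8.49. The 4 highest tumours lay close together. Tumour 2 was 4.45-fold, tumour 7 was 4.25-fold, tumour 4 was 4.14-fold and tumour 5 was 3.56-fold above the control. Tumour 1 was 1.45-fold and tumour 6 was 1.04-fold below the control, and tumour 3 was 1.56-fold above it, so the control lay within the resistant range. The group difference was 1.17 (SE 1.04, 95% interval -1.21 to 3.55, limma adjusted p = 0.822), with 5 of 7 tumours above the control. The Schwann cell and oligodendrocyte precursor genes S100b, Olig1 and Olig2 were not detected on any array.

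Across the 8 tumours Acta2 and Cspg4 had a Pearson r of 0.655 (exact permutation p = 0.0928, adjusted over 10 pairs 0.669) and a Spearman rho of 0.690 (exact permutation p = 0.0694, adjusted 0.694). Without tumours 2 and 7, the farthest from the Acta2 median, r was 0.331. None of the 10 pairs among the 5 genes detected everywhere passed. Rgs5 and Notch3 had r = 0.528 (exact permutation p = 0.187, adjusted 0.669), which fell to 0.122 without the control and tumour 4.

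The receptor tyrosine kinase Met was detected only in resistant tumours 2, 7, 4 and 5, at 10.32, 9.83, 9.51 and 5.92. Cspg4 read 8.56, 8.49, 8.46 and 8.24 in these tumours, the same descending order but with little between the first 3. With median scaling, tumour 7, at 4.34-fold the control, stood above tumour 2, at 4.03-fold, for Cspg4. Tumours 2, 7 and 4 were also the 3 highest for Acta2. Hgf, the ligand of MET, read 8.21, 8.36 and 7.53 in tumours 2, 7 and 4, while the control read 5.53. Met and Hgf were set beside these genes after their values had been seen, and the likeness was not tested.

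Fibroblast markers were given beside Acta2 because fibroblasts can make it. All 9 measured fibroblast markers were detected on every array, and Postn was detected on none. Their summed linear intensity was 40331 in the control, 38705 in tumour 2, 42346 in tumour 7 and 46213 in tumour 4, and lower in the others, at 17078, 23001, 26969 and 9040 in tumours 1, 3, 5 and 6 in that order. By this sum, tumours 4, 7 and 2, the 3 resistant tumours highest for Acta2, also led the resistant tumours. By the mean log2 level of the same markers they did not: tumour 4 was at 10.59, tumour 7 at 10.37, tumour 5 at 10.31 and tumour 2 at 10.27, with the control at 10.38. The part of fibroblasts in the Acta2 values was not tested.

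Rgs5 (probe ILMN_2979824), a regulator of G protein signalling used as a marker of pericytes, was at 8.81 in the control. The levels of resistant tumours 1 to 7 were, in order, 7.51, 7.65, 7.96, 8.78, 7.55, 8.58 and 7.19. All 7 resistant tumours lay below the control, from 1.02-fold in tumour 4 and 1.18-fold in tumour 6 to 3.09-fold in tumour 7. The group difference was -0.93 (SE 0.56, 95% interval -2.21 to 0.36, limma adjusted p = 0.720), and the resistant SD was 0.59 (n = 7). It did not pass the test. The control lay outside the resistant tumours, but 17.7% of the 7297 genes detected on all arrays also had all 7 tumours below it.

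Notch3 (probe ILMN_2697380), the NOTCH receptor of arterial smooth muscle and pericytes, was at 7.09 in the control. In order, resistant tumours 1 to 7 read 6.86, 5.84, 6.30, 7.06, 5.83, 6.79 and 6.79. Again all 7 were below the control, by 2.39-fold in tumour 5 and 2.37-fold in tumour 2 but by only 1.02-fold in tumour 4. The group difference was -0.59 (SE 0.49, 95% interval -1.72 to 0.54, limma adjusted p = 0.807). Among the 5 genes detected on all arrays, Rgs5 and Notch3 were the 2 with all 7 resistant tumours below the control, where 17.7% of the 7297 such genes had that order. Of the 5, 0 had all 7 tumours above it, where 13.8% of the 7297 did. Tumour 4 was nearest to the control for both.

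Endothelial markers were measured in the same tumours. The summed linear intensity of the 9 markers was 7436 in the control and 3065 to 6401 in the resistant tumours, and their mean log2 level was 8.01 in the control and 7.58 to 8.40 in the resistant tumours. The sum is weighted to Esam, the brightest marker in the control at 12.40 and at 10.16 to 11.58 in the resistant tumours. The next brightest in the control, Emcn, was at 9.10 there. Of the 9 markers, 5 had a group difference above 0 and 4 below it. Resistant tumour 4, which was level with the control for Rgs5 and Notch3, had the highest endothelial sum and mean of the resistant tumours. All 5 measured macrophage markers were above the control in all 7 resistant tumours, where 13.8% of the 7297 genes detected on all arrays were. Their summed intensity was 5054 in the control and 9040 to 13993 in the resistant tumours, though limma called 0 of them. The part of either cell type in the Rgs5 and Notch3 values was not tested. The genes most like Rgs5 were Igfbp7, a secreted vascular protein (r = 0.912), Pf4, platelet factor 4 (r = 0.870), and Tshz3 (r = 0.858). Those most like Notch3 were Ube3a, a ubiquitin ligase (r = 0.891), Limk1, a kinase of actin turnover (r = 0.850), and Hbegf, an EGF receptor ligand (r = 0.824).

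**Figure D4:**
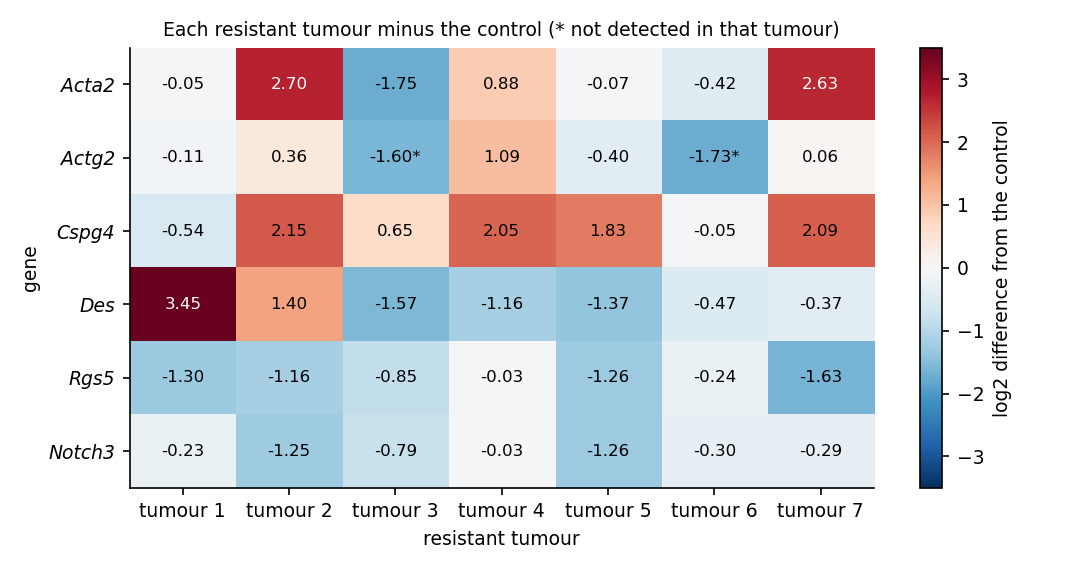
Log2 difference from the control of the 6 genes detected in the control, for each resistant tumour, with red above and blue below the control and an asterisk where the gene was not detected in that tumour. The Rgs5 and Notch3 rows are below 0 throughout, from -1.63 to -0.03, while the Acta2, Cspg4 and Des rows hold both signs.

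Tumour by tumour, the 5 genes detected on all arrays gave 35 comparisons with the control, of which 8 were at least 2-fold above it and 10 at least 2-fold below it. Acta2 is represented here by its brightest probe. With the mean of its 4 probes, Acta2 was also 2.76-fold above the control in tumour 4, and 9 comparisons were above and 10 below. By ILMN_2710354 alone, Acta2 was 4.64-fold above the control in tumour 4 and 2.52-fold in tumour 5, but only 1.34-fold below it in tumour 3. Without background correction, and likewise in the authors' normalized table, 8 were above and 4 below. The 4 below were Acta2 in tumour 3 and Rgs5 in tumours 1, 5 and 7, so no Des or Notch3 value stayed 2-fold below. In resistant tumour 1, Des was above and Rgs5 below, where 4.14% and 4.29% of the 7297 genes detected on all arrays were. In tumour 2, Acta2, Des and Cspg4 were above and Rgs5 and Notch3 below, against 6.02% and 5.91% of genes. All 5 genes were thus at least 2-fold from the control in tumour 2 with background correction. Without it Rgs5 and Notch3 there were at 0.525 and 0.624 of the control, and in the authors' table at 0.509 and 0.592. In tumour 3, 0 were above, against 7.92% of genes, and Acta2 and Des were below, against 7.85%. In tumour 4, Cspg4 was above and Des below, against 7.06% and 6.98%. In tumour 5, Cspg4 was above and Des, Rgs5 and Notch3 were below, against 6.77% and 7.36%. In tumour 6, 0 of the 5 genes were past 2-fold on either side by the probes used. Acta2 was 2.20-fold above the control there by ILMN_2710354 and 1.87-fold by ILMN_2710353. Of the 7297 genes, 10.6% were above and 13.4% below there, the largest shares of the 7 tumours. With 5 genes, a count of 0 does not set tumour 6 apart. Actg2, not among the 5, read 3.32-fold below the control there but was not detected. In tumour 7, Acta2 and Cspg4 were above and Rgs5 was below, against 5.07% and 4.59%.

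The wider contractile apparatus was described through 30 further smooth muscle and cytoskeletal genes, of which 17 were measured and 8 had probes that were not detected on any array. Of the 17, 0 rose and 0 fell by limma, 2 had all 7 resistant tumours above the control and 1 had all 7 below, and their median difference was 0.01. Over all 10461 genes, 1396 had all 7 above the control and 1779 all 7 below, and the median difference was -0.02. Of the 25 genes with a probe, 17 were thus detected on at least 1 array, where 10461 of all 16593 named genes were. The undetected genes include Synpo2, Kcnmb1, Pln and Ppp1r14a, which are characteristic of contractile smooth muscle. Mylk, Smtn, Tpm1 and Tpm2, of the same list, were detected on all 8 arrays. Fhl1, a LIM protein of striated and smooth muscle, was at 7.05 in the control and at 7.65 to 11.15 in the resistant tumours, above the control in 7 of 7. Its group difference was 2.88 (SE 1.16, limma adjusted p = 0.582). Pdlim3, a Z-disc protein of muscle, fell short of detection in the control and peaked in tumour 1, at 9.38, the tumour with the highest skeletal muscle sum. Hspb6, a small heat shock protein of muscle, was at 10.45 in the control and highest in tumour 6, at 12.82. Cnn3, the calponin of non-muscle cells, varied least, from 10.40 to 11.09 among the resistant tumours against 10.41 in the control. The mean log2 level of the 17 genes stood furthest above the control in tumours 2 and 7, by 0.61 and 0.56, and below it in tumour 6, by -0.35.

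Of 12 SRF cofactors and regulators 8 were measured, with 0 called in either direction by limma and a median difference of -0.15. In all 7 tumours 1 was above and 3 below the control, against 1396 and 1779 of all 10461 genes. The 3 below were Myocd, Mrtfb and Tead4. Myocd and Mrtfb were detected in the control alone and so entered the test only through it, which all but fixed their place below. The 1 above, Mrtfa, was not detected in the control. Between 4 and 7 of the 8 were detected per array, 7 of them in the control. Myocd, which encodes myocardin, was detected only in the control, at 5.36, and by 1 of its 3 probes. Mrtfa, a myocardin-related cofactor that answers to actin state, was detected in 2 resistant tumours and not in the control. Tead4, a TEAD factor, was at 8.95 in the control, with 7 of 7 resistant tumours lower, from 4.94 in tumour 6, where it was undetected, to 8.38. Its difference of -2.17 (SE 0.95) did not pass (limma adjusted p = 0.607). Gata6, a zinc finger factor of vascular smooth muscle, was at 6.85 in the control and ranged from 4.52, undetected, in tumour 3 to 8.22 in tumour 6.

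Of 25 further pericyte and mural genes 19 were measured. By limma 0 rose and 1 fell, and the median difference was -0.21. All 7 resistant tumours were above the control for 3 genes and below it for 5, against 1396 and 1779 of all 10461 genes. The 3 above, Vtn, Tbx18 and Angpt1, were not detected in the control, and Zic1, among the 5 below, was detected only there. The gene that fell was Zic1, a zinc finger transcription factor, at 6.35 in the control and detected in 0 of 7 resistant tumours, which makes it at least 2.14-fold lower (adjusted p = 0.0143). Zic1 entered the test only through the control, and its resistant SD of 0.07 was taken over readings none of which was detected. The p-value therefore rests on the spread of background readings. The bound sets the control against the lowest signal among detected probes on each array. The call was lost without background correction (adjusted p = 0.0673), in the authors' normalized table (0.0722) and without resistant tumour 2 (0.0704). Over the 13 alternatives tried the limma adjusted p of Zic1 ran from 0.000762 to 0.0722. Anpep, the aminopeptidase CD13 of pericytes and myeloid cells, was at 8.71 in the control, with 7 of 7 resistant tumours lower, from 5.18 to 8.12 (difference -1.90, SE 0.90, limma adjusted p = 0.623). Cox4i2, a respiratory chain subunit found in pericytes, was at 6.40 in the control and at most 6.31 in the resistant tumours, 3 of which detected it. Gucy1a1, a subunit of the nitric oxide receptor guanylate cyclase, was at 7.27 in the control and 6.44 to 7.27 in 6 resistant tumours, but at 9.78 in tumour 6, the tumour in which alone its other probes were detected.

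Further mural genes were also read singly. They were chosen outside the rule for named genes and after their values had been seen. Pdgfrb, the PDGF receptor of pericytes and fibroblasts, was at 8.16 in the control, with its highest resistant value, 9.38, in tumour 7 and its lowest, 6.98, in tumour 6. Mcam, the adhesion molecule CD146, was at 9.33 in the control and highest among the resistant tumours in tumour 4, at 9.56. Kcnj8, a potassium channel of pericytes, was at 7.38 in the control and at 7.71 in tumour 4. Higd1b was at 6.82 in the control and at 7.74 in tumour 4. Tumour 4 led the resistant tumours for Mcam, Kcnj8 and Higd1b, as it did for Rgs5 and Notch3, but other genes of the list were highest elsewhere, Abcc9, Rgs4, Gucy1a1 and Tbx2 in tumour 6 and Anpep, Vtn, Cox4i2 and Ednrb in tumour 1, for example. The mean log2 level of the 19 genes was 6.84 in the control, and among the resistant tumours it was highest in tumours 6 and 4, at 6.73 and 6.72.

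Of 15 NOTCH pathway genes 13 were measured, with 0 called in either direction by limma and a median difference of -0.32. In all 7 tumours 0 were above and 4 below the control, against 1396 and 1779 of all 10461 genes. The ligand Dll1 was at 7.47 in the control, with 7 of 7 resistant tumours lower, from 5.62 to 7.30 (difference -1.03, SE 0.60, adjusted p = 0.702). The endothelial ligand Dll4 was at 6.15 in the control and at most 5.74 in the resistant tumours. Rbpj, the DNA-binding partner of the NOTCH receptors, was at 6.12 in the control and at most 5.54 in the resistant tumours, 3 of which detected it (difference -0.97, SE 0.38, adjusted p = 0.565). Jag2 was detected in tumour 3 alone. The target gene Hey1 was at 9.01 in the control and at 7.22 in tumour 5 and 7.80 in tumour 2, the tumours with the lowest Notch3, but at 7.75 in tumour 7 and 9.80 in tumour 3.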

How the data were processed

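Biotin-labelled RNA of 8 tumours was read on Illumina bead arrays, with an array for each tumour (per the labels). GenomeStudio is named in the submitters' processing notes, with no version. The authors deposited linear probe intensity, each value beside its detection p-value, and a separate table of normalized intensity. The first is labelled non-normalized in the deposit, and its array medians differ (86.3 to 94.8). The second, with medians of 90.4 to 90.7, served as an alternative. No source used here names the step that made it.

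From the deposited intensity, limma's neqc (background inferred from the detection p-values, offset 16, quantile normalization) gave log2 values. The platform annotation gives 1 symbol to 23978 of the 25697 probes, several to 0 and none to 1719, and 23962 were matched by gene ID to RefSeq (GRCm38.p6). Probes detected on at least 1 array at a detection p under 0.05 were kept, and each of 10461 genes was represented by its detected probe with the highest mean. The comparison of resistant tumours with the control used lmFit and eBayes, two-sided, with Benjamini-Hochberg adjustment over all genes, at an adjusted p under 0.05. The fit was also run on simulated data. There the control was given the same spread as the resistant tumours, which a single control cannot check.

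The genes and lists were chosen with earlier results of these data known. Besides the 10 genes, each added list names its 3 genes with the smallest p and those with the largest and smallest range among resistant tumours, and Acta2, Des, Rgs5 and Notch3 name the 3 genes with the most similar pattern. Myh11, to which that rule also applied, was not detected on all arrays. The columns name no chip or position, so no batch could be tested. Alternatives covered background correction, scaling, the deposited normalized intensity, the probe rule, the detection filter, the variance model, a looser threshold and leaving out each resistant tumour. R 4.3.3 and limma 3.58.1 were used.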

Additional observations from a re-analysis of the deposited data

How the results depend on the processing

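Under each of the alternatives tried, 0 of the 10 genes passed the test, and 76 of 83 recomputed differences of Acta2, Actg2, Des, Rgs5, Cspg4 and Notch3 kept their sign, with limma adjusted p-values from 0.426 to 0.999. The 7 that turned were all of Des, whose difference was 0.16 without background correction, 0.14 in the deposited normalized values and -0.59 to 0.25 when each resistant tumour was left out. The Acta2 difference ran from 0.20, without resistant tumour 2, to 1.11, that of Rgs5 from -1.21 to -0.73, that of Cspg4 from 0.82 to 1.45 and that of Notch3 from -0.74 to -0.34. Median scaling in place of quantile normalization moved the median difference of all genes to -0.20, and the Rgs5 difference there was -1.21. The count of all genes past the threshold was 23. It was 10 without background correction, 9 in the deposited values, 39 with no detection filter, 2 among genes detected on all arrays, 43 at an adjusted p under 0.1, and 6 to 58 when each resistant tumour was left out, 6 without tumour 2 and 58 without tumour 1. Comparisons of 1 gene in 1 resistant tumour that lay at least 2-fold from the control numbered 18 of 35, and 12 to 19 under the alternatives. No paired analysis was possible because there is 1 control tumour and replicate numbers do not link it to the resistant ones. A single control gives no estimate of its own spread, genes read by 1 probe have no second measure, and levels near the lowest detected signal carry no order.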
